A study of Mus musculus with 8 samples.

Results

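The junction genes described here encode tight, gap and adherens junction proteins of Sertoli cells, the somatic cells that line the seminiferous tubules. The list names 9 genes, Cldn3, Cldn5, Cldn11, Ocln, Tjp1, Gja1, Cdh2, F11r and Cgn, and takes them by name, with no measured value in the rule. A row was found for 8 of them among the 18097 genes of the normalized array table, and Cgn, which encodes the tight junction adaptor cingulin, was not analysed here. A gene counted as detected when its detection p-value, which sets the signal against that of negative control beads, fell under 0.01 on 4 or more of the 8 arrays. By this rule 6 of the 8 genes were detected, Cldn5, Cldn11, Ocln, Tjp1, Gja1 and F11r, as were 8324 genes of the whole table.

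The blood-testis barrier is a belt of junctions between neighbouring Sertoli cells that divides the tubule into a basal compartment, which holds spermatogonia, and an adluminal compartment, in which meiosis proceeds. Claudins, occludin and junctional adhesion molecules form its tight junction strands, ZO-1 ties the strands to actin, connexin 43 forms gap junctions among Sertoli cells and with germ cells, and N-cadherin forms adherens junctions. The barrier is assembled in the juvenile testis, and spermatocytes pass through it as they enter meiosis.

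Single-colour Illumina BeadChips were hybridized with testis RNA, 1 array for each male, from 4 males of each genotype aged 17.5 dpp (days post partum), and the organ was not separated into cell types. XEOSry males are MF1 mice with 1 X chromosome and no Y chromosome (XO), made male by an Sry transgene and provided with Eif2s3y, which spermatogonia need to proliferate, and they have no Zfy gene. XEZ2OSry males have the same strain, karyotype, age, Sry and Eif2s3y, and in addition an X-linked Zfy2 transgene. Neither genotype has the rest of the Y chromosome, and in both the X has no pairing partner at meiosis, so that neither group stands for a normal XY testis. The labels number 4 males per genotype whereas the Methods speak of 3, and the animal identifiers share 1 beginning in XEOSry, have 3 other beginnings in XEZ2OSry and share none between the genotypes, so that a cohort, if they mark one, and the genotype cannot be told apart. All differences are XEOSry minus XEZ2OSry in log2 signal, and they ask whether the loss of Zfy2 went with another level of barrier transcripts in the testis.

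The arrays measured a mixture of cell types. Of the cell type marker means, only that of pachytene spermatocytes differed more between the genotypes than every detected member of the list. Zfy2, the gene that sets the genotypes apart, was detected on 0 of the 8 arrays, so that its signal did not check the labels. The Zfy1 row, also detected on 0 arrays, read between 6.13 and 6.28 in XEOSry and between 6.5 and 6.77 in XEZ2OSry. By the paper neither genotype carries Zfy1, so this row is not read as Zfy1 expression, and the source of its separation was not tested. The mean of 14 detected pachytene spermatocyte markers of 22 listed (Sycp3, Ccna1, Tbpl1, Mybl1, Crisp2 and Theg were below the detection rule) was 9.90 ± 0.831 (SD, n = 4) in XEOSry, with single arrays between 9.06 and 10.78, and 11.32 ± 0.462 in XEZ2OSry, with single arrays between 10.68 and 11.78 (difference -1.42, exact permutation p = 0.0571). The mean of 19 detected Sertoli cell markers of 28 listed ran from 9.70 to 10.05 in XEOSry and from 9.34 to 9.89 in XEZ2OSry (difference 0.26, exact permutation p = 0.171). Sertoli RNA was plainly present, with Sox9, Sox8, Dhh and Inha detected on all 8 arrays, but Amh, Gata1, Gata4, Kitl, Gdnf and Dmrt1 were below the detection rule and Wt1, Clu and Inhbb were not analysed here. In whole testis RNA a change in the share of a cell type and a change in RNA per cell cannot be told apart.

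No detected barrier gene was told apart between the genotypes after adjustment over all genes. With so few males this does not show that the levels were alike. The limma intervals allow folds from 0.976 to 1.84 for Gja1, from 0.763 to 1.79 for Cldn11 and from 1.04 to 1.61 for F11r. Of the 6 detected genes, 5 had the higher mean in XEOSry, where Gja1 was 1.34-fold, F11r 1.30-fold, Cldn11 1.17-fold, Cldn5 1.15-fold and Ocln 1.10-fold the XEZ2OSry level, and Tjp1 was 0.935-fold. None of the 6 passed at an adjusted p of 0.05 in limma, a threshold that 0.0601% of all genes tested passed (5 of 8324). At an unadjusted p under 0.05 the count was 1 of 6, F11r, where 24.8% of all genes were under it. An ordinary linear model without variance moderation gave 2 of 6 at that level, beside 1766 of 8324 genes. After adjustment it gave 0 of 6, beside 1 of 8324 genes. The median difference of the 6 genes was 0.21 against 0.07 over all 8324 genes, of which 62.0% had the higher and 38.0% the lower mean in XEOSry. The genotypes overlapped in all 6 genes, whereas 10.9% of all genes had groups that did not overlap (6.34% higher and 4.58% lower in XEOSry).

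**Figure D1:**
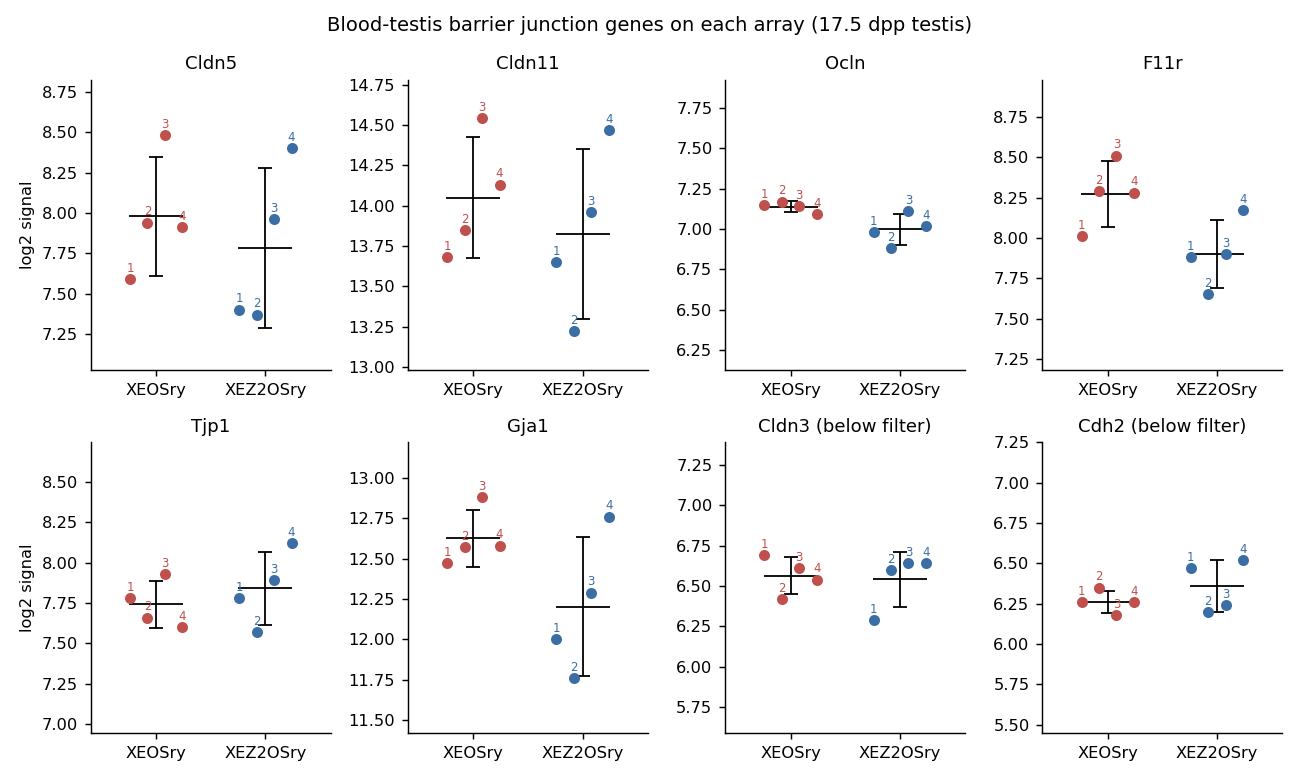
Log2 signal of the 8 junction genes of the table on each array; points are single males with their replicate number, black lines the mean ± SD of 4 arrays, and every panel spans 1.8 log2 units. The groups overlap in every panel, and XEOSry replicate 3 and XEZ2OSry replicate 4 are the highest arrays of their groups for Cldn5, Cldn11, Tjp1, Gja1 and F11r.

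In all 6 genes the XEZ2OSry males alone spanned more than the difference between the genotypes, and several of the genes shared this spread. On XEOSry replicate 3 all 6 genes lay above their own mean over the 8 arrays, with a median deviation of 0.44, and on XEZ2OSry replicate 4 the count was 5 of 6, with a median of 0.34. On XEZ2OSry replicates 1 and 2 all 6 lay below it, with medians of -0.25 and -0.47. Over the 8 arrays Pearson's r was 0.951 between Cldn5 and Cldn11, 0.921 between Gja1 and F11r, 0.904 between Cldn11 and Gja1, 0.886 between Cldn5 and Gja1, 0.823 between Cldn11 and F11r and 0.790 between Cldn5 and F11r. These values are a description over 8 arrays that share their RNA, their normalization and their mixture of cells. Tjp1 had r = 0.535 with Gja1, 0.704 with Cldn11, 0.686 with Cldn5, 0.283 with F11r and 0.169 with Ocln. Once each genotype's mean was taken off, the same pairs had 0.907, 0.844, 0.815, 0.73 and 0.596. Within genotypes Tjp1 thus shared much of the spread, whereas Ocln had 0.542 with Gja1 and 0.363 with F11r.

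The 250 bases before the annotated start of the 4 genes that moved most alike are shown because their shared variation is the clearest pattern in the list. They are RefSeq sequences of build GRCm38.p6, written 5′ to 3′ on the strand of the gene, and capitals mark matches on either strand to 4 motifs, the CCAAT box (CCAAT), the GC box (GGGCGG), the cyclic AMP response half-site (TGACG) and the AP-1 site (TGANTCA). No match overlapped another.
Cldn5 (chr16:18776597-18776846, + strand): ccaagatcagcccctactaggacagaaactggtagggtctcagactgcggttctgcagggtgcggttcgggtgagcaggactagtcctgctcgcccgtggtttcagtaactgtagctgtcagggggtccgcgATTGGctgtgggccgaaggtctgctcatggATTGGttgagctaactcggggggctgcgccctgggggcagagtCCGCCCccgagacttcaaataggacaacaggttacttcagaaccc
Cldn11 (chr3:31149670-31149919, + strand): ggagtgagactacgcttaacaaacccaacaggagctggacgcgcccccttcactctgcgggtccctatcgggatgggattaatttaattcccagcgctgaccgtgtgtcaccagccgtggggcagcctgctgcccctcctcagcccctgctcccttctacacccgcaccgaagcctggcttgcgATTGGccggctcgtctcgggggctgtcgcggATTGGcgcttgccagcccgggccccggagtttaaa
F11r (chr1:171437311-171437560, + strand): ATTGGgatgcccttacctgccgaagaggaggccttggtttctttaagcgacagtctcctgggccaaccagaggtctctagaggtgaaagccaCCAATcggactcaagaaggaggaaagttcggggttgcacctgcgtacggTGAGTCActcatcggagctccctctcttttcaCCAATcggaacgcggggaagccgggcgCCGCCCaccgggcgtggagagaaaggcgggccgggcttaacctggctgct
Gja1 (chr10:56377050-56377299, + strand): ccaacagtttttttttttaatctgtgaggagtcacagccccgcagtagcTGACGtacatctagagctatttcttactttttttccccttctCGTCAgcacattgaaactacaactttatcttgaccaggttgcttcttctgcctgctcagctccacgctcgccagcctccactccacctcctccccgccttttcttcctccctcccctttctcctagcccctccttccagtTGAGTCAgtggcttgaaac
The letters CCAAT or their complement occurred 2 times before Cldn5, 2 times before Cldn11, 3 times before F11r and 0 times before Gja1, and 33.8% of all 32851 promoter windows of this length held them. Gja1 and F11r each held 1 AP-1 site, which 6.75% of all windows held. Gja1 also held 2 half-sites for the cyclic AMP response, found in 17.8% of all windows, and Cldn5 and F11r each held 1 GC box, found in 32.7%. None of the 4 motifs was found in all 4 genes, and a link between the motifs and the likeness of these genes was not tested. Of the other detected members, Tjp1 held 2 GC boxes and none of the other 3 motifs, and both annotated starts of Ocln had 1 GC box, with a CCAAT box before 1 of them.

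The claudins seal the space between cells. Cldn11 encodes claudin-11, the main claudin of the Sertoli cell barrier, without which mice lack tight junction strands between Sertoli cells and are sterile. Its log2 signal was 13.68, 13.85, 14.54 and 14.13 in XEOSry replicates 1 to 4 and 13.65, 13.22, 13.96 and 14.47 in XEZ2OSry replicates 1 to 4. XEOSry replicate 3 and XEZ2OSry replicate 4 were the highest arrays and lay close together, XEZ2OSry replicate 2 was the lowest, and the groups overlapped. The means were 14.05 ± 0.377 and 13.82 ± 0.530 (SD, n = 4 each), a difference of 0.23 (SE 0.273, 95% interval -0.39 to 0.84, adjusted p = 0.615 from limma, exact permutation p = 0.514). The interval allows folds from 0.763 to 1.79, so that a change of either sign of this size could not be told from none with 4 males per genotype.

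Cldn5, which encodes a claudin of both endothelial and Sertoli tight junctions, gave 7.59, 7.94, 8.48 and 7.91 in XEOSry and 7.40, 7.37, 7.96 and 8.40 in XEZ2OSry. The same arrays were high and low as for Cldn11, and the groups overlapped. The difference was 0.20 (SE 0.260, 95% interval -0.39 to 0.78, adjusted p = 0.642 from limma, exact permutation p = 0.486). Since blood vessels also carry claudin-5, endothelial markers were set beside it: 10 of 16 were detected, Cdh5, Kdr, Flt1, Tie1, Robo4 and Vwf were not, and the mean of the 10 ran from 7.19 to 7.56 in XEOSry and from 7.06 to 7.48 in XEZ2OSry (difference 0.07, exact permutation p = 0.571). Over the 8 arrays Cldn5 had r = 0.903 with that mean and 0.857 with the Sertoli marker mean, and the part of either cell type in its level was not tested.

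Cldn3, a claudin of newly formed barrier strands, stood at the edge of detection, under 0.01 on 1 of the 8 arrays. Its values were 6.69, 6.42, 6.61 and 6.54 in XEOSry and 6.29, 6.60, 6.64 and 6.64 in XEZ2OSry, all not well above background. XEZ2OSry replicate 1 was the lowest of the 8, and the groups overlapped. The means differed by 0.02 (exact permutation p = 0.80), which at this signal carries no information on a fold.

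Ocln encodes occludin, a membrane protein of tight junction strands. Its signal was dim and the steadiest of the list in XEOSry, at 7.15, 7.17, 7.14 and 7.09, against 6.98, 6.88, 7.11 and 7.02 in XEZ2OSry. Only XEZ2OSry replicate 3 reached into the XEOSry range, above XEOSry replicate 4. The means were 7.14 ± 0.0307 and 7.0 ± 0.0972 (SD, n = 4 each), a difference of 0.14 (SE 0.0835, 95% interval -0.05 to 0.33, adjusted p = 0.308 from limma, exact permutation p = 0.0571, where the smallest p that 4 against 4 arrays allow is 0.0286).

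F11r encodes junctional adhesion molecule A, an immunoglobulin-type protein at the tight junction, and came nearest to a difference. It read 8.01, 8.29, 8.51 and 8.28 in XEOSry and 7.88, 7.65, 7.90 and 8.17 in XEZ2OSry. All XEOSry arrays but replicate 1 lay above all XEZ2OSry arrays, and replicate 1 was exceeded by XEZ2OSry replicate 4 alone. The means were 8.27 ± 0.202 and 7.90 ± 0.212 (SD, n = 4 each), a difference of 0.38 (SE 0.139, 95% interval 0.06 to 0.69, unadjusted p = 0.0241 and adjusted p = 0.153 from limma, exact permutation p = 0.0571). F11r was also the gene of the list that ran most strongly against the pachytene marker mean, with r = -0.853 over the 8 arrays, and the part of the mixture of cells in its difference was not tested.

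Tjp1, the gene of the scaffold protein ZO-1, was the 1 detected member with the lower mean in XEOSry. Its values were 7.78, 7.66, 7.93 and 7.60 in XEOSry and 7.78, 7.57, 7.89 and 8.12 in XEZ2OSry. The groups overlapped almost wholly, and XEZ2OSry replicate 4 alone lay above all XEOSry arrays. The difference was -0.10 (SE 0.132, 95% interval -0.39 to 0.20, adjusted p = 0.653 from limma, exact permutation p = 0.571), and without XEZ2OSry replicate 4 it was 0 to 2 decimals.

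Gja1 encodes connexin 43, the main gap junction protein of Sertoli cells, whose loss from Sertoli cells stops spermatogenesis in mice. Its log2 signal was 12.47, 12.57, 12.88 and 12.58 in XEOSry and 12.00, 11.76, 12.29 and 12.76 in XEZ2OSry. All 4 XEOSry arrays lay above XEZ2OSry replicates 1 to 3, and XEZ2OSry replicate 4 lay inside the XEOSry range. The means were 12.62 ± 0.177 and 12.20 ± 0.432 (SD, n = 4 each), the largest difference of the list at 0.42 (SE 0.202, 95% interval -0.03 to 0.88, adjusted p = 0.230 from limma, exact permutation p = 0.171). Without XEZ2OSry replicate 4 it was 0.61 and closest to the threshold of any fit (adjusted p = 0.0516), and F11r was 0.46 (adjusted p = 0.0624). In that fit 519 of the 8324 genes passed, against 5 in the fit of all arrays.

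Cdh2, which encodes N-cadherin, the classical cadherin of Sertoli and germ cell adherens junctions, was detected on 0 of the 8 arrays. It read 6.26, 6.35, 6.18 and 6.26 in XEOSry and 6.47, 6.20, 6.24 and 6.52 in XEZ2OSry, not well above background on any array, and the groups overlapped. The means differed by -0.10 (exact permutation p = 0.314), from which no fold can be taken.

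**Figure D2:**
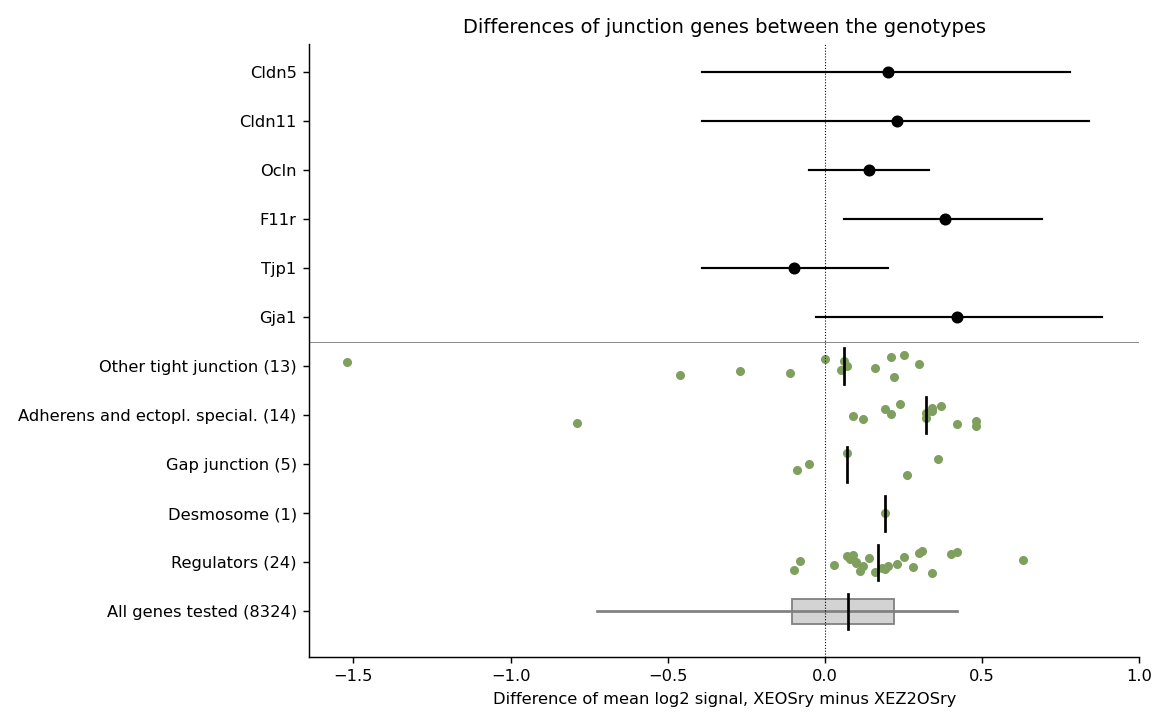
Differences of mean log2 signal, XEOSry minus XEZ2OSry; black points are the 6 detected members with 95% intervals from limma, green points single genes of 5 further junction lists (number of genes in brackets, black bar at the median), and the grey box holds the middle of all 8324 genes from the lower to the upper quartile with whiskers from the 5th to the 95th percentile. F11r alone has an interval that leaves out 0, and Ybx3 at -1.52 and Nectin3 at -0.79 lie far to the left of the other junction genes.

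The whole set of arrays is easier to read when each gene is set against its own mean. Members and most marker means were high or low on much the same arrays. The peritubular myoid marker mean (5 of 8 genes detected, with Cnn1 and Tagln not) ran from 8.31 to 9.09 in XEOSry and from 7.96 to 8.88 in XEZ2OSry, and Cldn11 had r = 0.906 with it, 0.960 with the endothelial mean and 0.948 with the mean of 6 detected spermatogonia markers of 15 listed (8.23 to 8.60 in XEOSry and 8.06 to 8.67 in XEZ2OSry, with Gfra1, Nanos3, Ret, Sall4 and Ddx4 not detected). Gja1 had r = 0.968 with the Sertoli marker mean, the highest of the list with those markers over the 8 arrays, and Tjp1 had 0.574. Once each genotype's mean was taken off, Tjp1 was the highest with 0.967 and Gja1 had 0.950. The Leydig mean (4 of 8 genes detected, without Star, Hsd3b1, Hsd3b6 and Hsd17b3) ran from 8.66 to 9.22 in XEOSry and from 8.61 to 9.21 in XEZ2OSry, and was less like the members, with r between -0.208 for F11r and 0.426 for Tjp1. The mean of 8 detected macrophage markers of 12 listed (Csf1r, Cd14, Cd163 and Fcgr1 were not detected) ran from 8.01 to 8.37 in XEOSry and from 7.68 to 8.26 in XEZ2OSry.

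**Figure D3:**
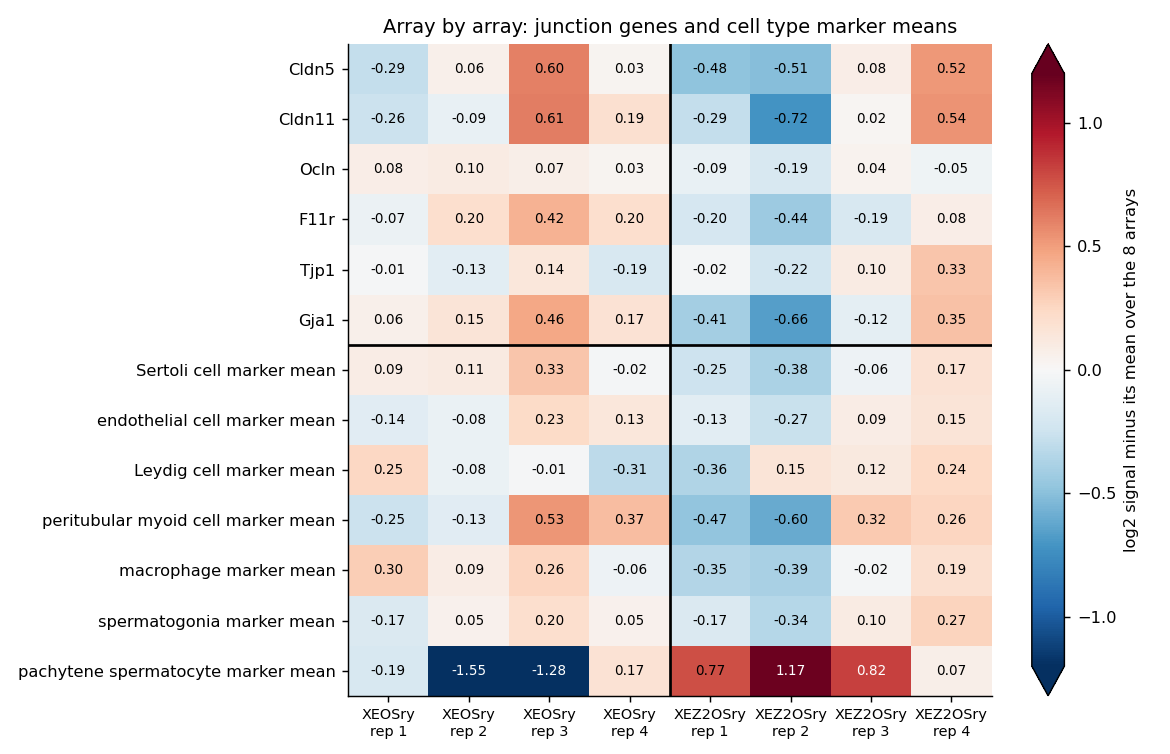
Deviation of log2 signal from the mean over the 8 arrays for the 6 detected junction genes and for the mean of each cell type marker list, with 1 column per array; red is above and blue below the mean, and the colour scale ends at 1.2 in either direction. XEOSry replicate 3 is red and XEZ2OSry replicate 2 blue for all 6 junction genes, and the pachytene row runs the other way on both.

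The pachytene marker mean moved with the genotypes and also within them. It was 10.42, 9.06, 9.33 and 10.78 in XEOSry replicates 1 to 4 and 11.38, 11.78, 11.43 and 10.68 in XEZ2OSry replicates 1 to 4, so that XEOSry replicate 4 lay above XEZ2OSry replicate 4. All 6 members had a negative r with it over the 8 arrays, from -0.132 for Tjp1 to -0.853 for F11r. Within genotypes, after each genotype's mean was taken off, r ran from -0.391 for Ocln to -0.672 for F11r. The part of the pachytene RNA in the levels of the junction genes was not tested.

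Set against the Sertoli cell markers of the same array, Tjp1 was the 1 member whose genotypes came apart, and the lean towards XEOSry was lost in 3 of the other 5. Subtracting the marker mean shifted the median of all 8324 genes from 0.07 to -0.19, so the values below are relative to Sertoli RNA and not to the testis. Tjp1 lay at -2.03, -2.18, -2.12 and -2.10 in XEOSry and at -1.69, -1.76, -1.77 and -1.77 in XEZ2OSry. Every XEOSry array was below every XEZ2OSry array, and the SD within a genotype dropped from 0.149 to 0.0606 in XEOSry and from 0.227 to 0.0391 in XEZ2OSry. The difference was -0.36 (exact permutation p = 0.0286, unadjusted and the smallest that 4 against 4 allow, 1 of 6 members tested), and on this scale 4.37% of all genes lay apart in the same direction and 0.601% in the other. Fitted over all genes on this scale it did not pass (adjusted p = 0.168 from limma), and with the median of the markers in place of their mean it was -0.22 (exact permutation p = 0.229).

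The other 5 members overlapped between the genotypes on the Sertoli scale. Gja1 kept a positive difference of 0.16 (exact permutation p = 0.200) and F11r one of 0.11 (exact permutation p = 0.257). Cldn5 turned to -0.06 (exact permutation p = 0.743), Cldn11 to -0.04 (exact permutation p = 0.886) and Ocln to -0.12 (exact permutation p = 0.371). The direction of these 3 genes thus rests on the scale and on how the marker level is taken. Ocln alone had a wider spread on this scale, with the SD rising from 0.0307 to 0.138 in XEOSry and from 0.0972 to 0.189 in XEZ2OSry. With the median of the markers Cldn5 was 0.07, Cldn11 0.10 and Ocln 0.02. With the marker mean only Gja1, F11r and Tjp1 had the same direction on both scales, and F11r turned to -0.06 with normexp background correction.

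**Figure D4:**
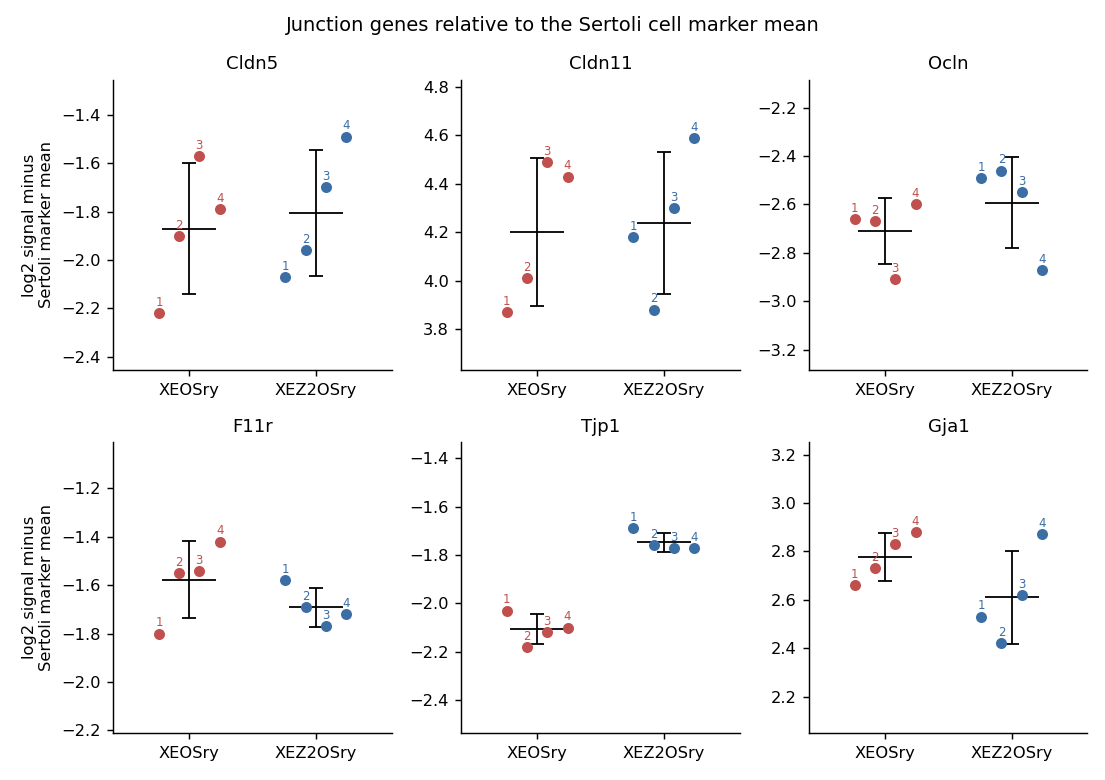
Log2 signal of the 6 detected junction genes minus the mean of 19 detected Sertoli cell markers on the same array; points are single males with their replicate number and black lines the mean ± SD of 4 arrays, with 1.2 log2 units in every panel. The Tjp1 panel is the only one in which the genotypes lie apart, at -2.18 to -2.03 in XEOSry and -1.77 to -1.69 in XEZ2OSry.

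Beyond the 9 genes, 5 lists held 127 further junction genes and regulators, of which 57 were detected. None of the 57 passed in limma, and 13 had an unadjusted p under 0.05 (9 higher and 4 lower in XEOSry, against 12.9% and 12.0% of all genes). The mean was higher in XEOSry in 48 of 57, with a median difference of 0.19, where 62.0% of all genes were higher with a median of 0.07. Without XEOSry replicate 4, 3 of the 57 passed beside 4.76% of all genes (396 of 8324), and without XEZ2OSry replicate 4, 2 passed beside 6.23% (519 of 8324). The genes with the lower mean in XEOSry were few, and some stood far out. Those with an unadjusted p under 0.05 were Ybx3, Nectin3, Pard6a (-0.46) and Magi1 (-0.27), of which the last 2 were chosen after their values were seen.

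Among 13 detected tight junction genes, 9 had the higher and 4 the lower mean in XEOSry (62.0% and 38.0% of all genes), and the median was 0.06. Ybx3 encodes a Y-box protein that binds ZO-1 in epithelial cells and mRNA in germ cells. Its values were 9.0, 7.75, 7.87 and 9.37 in XEOSry and 10.05, 10.49, 10.18 and 9.36 in XEZ2OSry, and they were lowest on the XEOSry arrays with the lowest pachytene mean. The difference was -1.52 (SE 0.388, adjusted p = 0.114 from limma, exact permutation p = 0.0571), and it passed without XEOSry replicate 4 (-1.81, adjusted p = 0.0439) or without XEZ2OSry replicate 4 (-1.74, adjusted p = 0.0458). Cxadr, an adhesion molecule of the same family as F11r, read 7.16 to 7.36 in XEOSry and 6.83 to 7.13 in XEZ2OSry without overlap (difference 0.30, adjusted p = 0.133 from limma).

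The next list held 14 detected genes of adherens junctions and of the ectoplasmic specialization, the actin-rich adhesion of Sertoli cells. Of these 13 had the higher mean in XEOSry, as did 62.0% of all genes, and the median was 0.32. Zyx, the gene of the focal adhesion protein zyxin, differed by 0.48 (SE 0.402, adjusted p = 0.469), and Ctnna1, which encodes the alpha-catenin that joins cadherins to actin, by 0.34 (SE 0.183, adjusted p = 0.275). Nectin2 and Nectin3 encode partners across the Sertoli cell and spermatid contact, with nectin-2 on the Sertoli side. Nectin2 read 9.96, 10.07, 10.93 and 10.62 in XEOSry and 9.77, 9.31, 10.17 and 10.41 in XEZ2OSry (difference 0.48, adjusted p = 0.301 from limma). Nectin3 read 9.87, 9.20, 8.85 and 9.98 in XEOSry and 10.46, 10.95, 10.11 and 9.57 in XEZ2OSry, detected on 4 of the 8 arrays (difference -0.79, adjusted p = 0.180 from limma). The groups overlapped in both genes, and the arrays highest for Nectin3 were those with a high pachytene mean.

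Of 5 detected gap junction genes 3 had the higher mean in XEOSry. Gja6, the X-linked gene of connexin 33 of the testis, differed by 0.36 (SE 0.186, adjusted p = 0.255 from limma). The paper reports that X-linked transcripts were raised in XEOSry, and the part of this in Gja6 was not tested. Gjc1, the gene of connexin 45, differed by -0.05 (adjusted p = 0.831) and Gjd3, another connexin gene, by -0.09 (adjusted p = 0.647). The 1 detected desmosome gene, Pkp2, which encodes plakophilin 2, read 7.61 to 7.71 in XEOSry and 7.40 to 7.51 in XEZ2OSry without overlap (difference 0.19, SE 0.0787, adjusted p = 0.174 from limma). Of 24 detected regulators of Sertoli junctions 22 had the higher mean in XEOSry, as did 62.0% of all genes, with a median of 0.17.

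Mapk14, the gene of p38 alpha, a kinase in cytokine signalling to the barrier, had the lowest adjusted p of all junction lists. It read 9.80, 9.89, 9.98 and 9.60 in XEOSry and 9.32, 9.15, 9.04 and 9.25 in XEZ2OSry, so that the groups did not overlap. The difference was 0.63 (SE 0.109, adjusted p = 0.0805 from limma, exact permutation p = 0.0286), and it passed without XEOSry replicate 4 (0.70, adjusted p = 0.0419) or without XEZ2OSry replicate 4 (0.65, adjusted p = 0.0393). Rps6, a ribosomal protein and the substrate by which mTOR signalling to the barrier is read, differed by 0.28 (SE 0.0835, adjusted p = 0.121), Ptk2, the gene of focal adhesion kinase, by 0.10 (adjusted p = 0.641) and Tgfb2 by -0.10 (adjusted p = 0.557). Actr3, a subunit of the Arp2/3 complex that branches actin, passed only without XEOSry replicate 4 (0.54, adjusted p = 0.0472), and was chosen after its values were seen.

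The genes most like each member over the 8 arrays, taken by Pearson's r among all 8324 detected genes, were no members of the list. They were Igfbp2 (0.990) and Rab3gap1 (0.987) for Cldn5, Trp53bp1 (0.993) and Mfsd2 (0.992) for Cldn11, and Rassf5 (0.993) and Fkbp2 (0.991) for Gja1. For F11r they were Exoc4 (0.993) and Armcx2 (0.992), for Ocln Wfdc6a (0.963) and Atp4a (0.959), and for Tjp1 Vapa (0.933) and Upk3b (0.917). Among so many genes the highest r over 8 arrays is high by selection, and the values are given as a description. Their differences between the genotypes ran from -0.07 for Vapa to 0.44 for Armcx2, and none of these genes passed in limma.

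The 2 detected markers with the highest array signal in each cell type list were set beside these values. Aard and Cst9, both of Sertoli cells, differed by 0.22 and 0.53 (adjusted p = 0.432 and 0.122 from limma), and Egfl7 and Emcn of endothelial cells by 0.25 and 0.09 (adjusted p = 0.256 and 0.607). Acta2 and Myh11 of peritubular muscle each differed by 0.29 (adjusted p = 0.638 and 0.512), Cyp17a1 and Insl3 of Leydig cells by -0.33 and 0.08 (adjusted p = 0.500 and 0.838), and Lyz2 and Mrc1 of macrophages by 0.33 and 0.56 (adjusted p = 0.497 and 0.132). Sohlh1 and Uchl1 of spermatogonia differed by 0.44 and 0.45 (adjusted p = 0.305 and 0.266), although the mean of that list differed by 0.06 and Id4, chosen after its values were seen, was lower in XEOSry without overlap (-0.89, adjusted p = 0.117). Rsph1 and Ldhc of pachytene spermatocytes differed by -0.91 and -1.42 (adjusted p = 0.133 and 0.136). None of these markers passed, and the 2 pachytene genes differed more than any junction gene except Ybx3.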

How the data were processed

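Whole testis RNA of 4 XEOSry and 4 XEZ2OSry males at 17.5 dpp was measured, with genotypes and replicate numbers taken from the sample labels. Gene-level log2 values, which the authors had quantile normalized, ranged from 5.72 to 15.48 and were used as deposited. Signal intensities, which the authors deposited as non-normalized, were also read. Their array medians, 105.5 to 106.3, show that they had been aligned already. A detection p-value was deposited with each gene and array. GenomeStudio 2011.1 is listed in the submitters' processing notes, whereas BeadStudio stands in the Methods. The series table, also deposited, repeated these values for 18091 genes out of 18097. No genome build is given in the sources used here for the array annotation.

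Genes detected (p under 0.01) on at least 4 of 8 arrays entered a linear model with genotype alone (limma 3.58.1, moderated by eBayes, R 4.3.3). Its two-sided p-values were adjusted by Benjamini-Hochberg over 8324 genes, at a threshold of 0.05. Exact permutation tests were two-sided over the 70 assignments of 8 arrays to the genotypes, unadjusted, with a smallest p of 0.0286. Intervals are 95% intervals from limma. Signals were not reported to be background-subtracted, so folds of dim genes may be understated, and the number of arrays limits the precision. Background correction by normexp with an offset of 16 gave 0.19 for F11r, 0.07 for Cldn5, 0.03 for Ocln and -0.04 for Tjp1. The main fit gave 0.38, 0.20, 0.14 and -0.10. An added offset itself shrinks differences of dim genes, so these values cannot show whether their folds were understated. Cldn11 was 0.21 (main fit 0.23) and Gja1 0.43 (main fit 0.42). Nothing in the labels says more of the males' litters, and p-values measure the spread between these males.

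The members, 5 junction lists and 7 marker lists (Sertoli, endothelial, Leydig, peritubular myoid, macrophage, spermatogonia, pachytene) were chosen with earlier results of these data known. Array symbols were matched to current ones through RefSeq synonyms, 10 by an older symbol and 5 by another synonym, and 19 entries stayed unmatched. The text names every member, from each junction list the genes past the threshold or else the 2 brightest, and those with the largest difference in each direction, from each marker list the 2 brightest, and for each detected member the 2 most alike genes. A gene that this rule takes is not reported here. Relative values subtract the mean of 19 detected Sertoli markers. Alternatives changed the filter, background correction (normexp, offset 16), source of values, scaling, variance estimate, replicate block and arrays used. Scaling to the 16 autosomal Sertoli markers was added after the data were seen. The analysis was tested on simulated data. Tables were made with pandas 2.3.3 and numpy 2.4.6 in Python 3.11.15, and plots with matplotlib 3.10.9.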

Additional observations from a re-analysis of the deposited data

Results flagged for a closer look

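In each group of 4 arrays the highest and the lowest value were set against the others by the gap divided by the range. Of 100 groups tested 5 had an array whose ratio was above Dixon's critical value at 95%, which is about the share that chance gives (about 1 in 20 groups). Among the junction genes, Cldn3 on XEZ2OSry replicate 1 read 6.29, below the other 3 arrays at 6.60 to 6.64, in a gene that is not well above background. Tjp1 relative to the Sertoli cell markers was -1.69 on XEZ2OSry replicate 1, above the others at -1.77 to -1.76, a gap that is large only because those 3 arrays lie so close. Ctnna1 read 12.26 on XEOSry replicate 3, above 11.93 to 11.97 on the other arrays of its genotype. Rps6 read 12.89 on XEZ2OSry replicate 3, above 12.71 to 12.72. Cst9, a Sertoli cell marker, read 13.82 on XEOSry replicate 4, below 14.23 to 14.29.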

How the results depend on the processing

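No member passed under any of 19 alternatives. Among these, the series table repeated the main values and the non-normalized intensities had been aligned already, so they could hardly give another outcome. Tjp1, Gja1 and F11r kept their direction in all fits of the testis-wide difference except that Tjp1 was 0 to 2 decimals without XEZ2OSry replicate 4. Scaling to the Sertoli cell markers reversed Cldn5 (-0.06), Cldn11 (-0.04) and Ocln (-0.12), and scaling to autosomal Sertoli markers gave -0.11, -0.08 and -0.16. Relative to Sertoli markers, the median in place of the mean gave 0.07 for Cldn5, 0.10 for Cldn11 and 0.02 for Ocln and weakened Tjp1 to -0.22, normexp turned F11r to -0.06, and leaving out 1 array moved Cldn5 between -0.16 and 0.05 and Cldn11 between -0.15 and 0.08. The other junction lists had 0 to 3 passing genes when 1 array was left out and 0 under all other alternatives. Over all genes 5 passed, 3 to 519 when 1 array was left out (396 without XEOSry replicate 4, 519 without XEZ2OSry replicate 4), 1 when detection on all 8 arrays was asked for, 2 with normexp and 1 without variance moderation. The cause of these differences was not tested.

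With the replicate number as a replicate block, 1 gene of 8324 passed and no member did. Same-numbered arrays correlated at 0.426, -0.232, 0.327 and -0.421 in their deviations from the group means. The Methods call the XEZ2OSry animals matched controls and do not say how they were matched. These correlations also follow the mixture of cells in each testis, so they cannot show whether the numbers pair the males. With 4 arrays per genotype, the intervals of the members allow changes of up to 1.84-fold for Gja1 and 1.79-fold for Cldn11, and Cldn3 and Cdh2 lie too near background for any estimate.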
